A study of Mus musculus and synthetic construct with 21 samples.

Results

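PPARγ is the nuclear receptor at the head of the fat-cell differentiation programme. It binds DNA as a heterodimer with RXR on a DR1 element, a direct repeat of the half-site AGGTCA with 1 base between the copies. In this arrangement PPARγ sits on the first half-site and RXR on the second. Genomic binding sites rarely carry the full consensus, and many hold a degenerate version of it.

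The sites described here are those whose DR1 is the most degenerate in a massively parallel reporter assay (MPRA) of mouse genomic DR1 sites. A site was included when the 16-base motif written in its name had 4 or more mismatches to the 13-base consensus (AGGTCA, an A as spacer, AGGTCA), taking the alignment with the fewest mismatches over all offsets and both strands. This rule used sequence only, and 3012 of the 4500 sites in pools 1 and 3 met it. Pool 1 holds 441 w and 441 c members among 750 sites of each class. Pool 3 holds 982 w and 1148 c members among 1500 sites of each class. The w and c codes are those of the element names and are not spelled out there. In pool 1 a w site and the c site of the same number carry the same 16-mer at different genomic positions, for all 441 numbers. The w and c sites of pool 3 are not matched in this way.

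Each site was built in a native form and an altered form. The codes t and d in the names are not spelled out either, and t was read as native and d as altered. The sequence of the altered form is not given in the names and was not analysed here. The plasmids were transfected into 3T3-L1 cells, an established mouse preadipocyte line, under an adipogenic cocktail of 1 uM dexamethasone, 1.7 uM insulin and 0.5 mM IBMX as the labels describe it, and RNA was collected 16 hours after transfection. No other genotype or treatment group enters these comparisons, and endogenous transcripts of the cells were not analysed here. Each pool gave 1 RNA library and 1 plasmid library, and pool 1 also gave 1 PPARγ chromatin immunoprecipitation (ChIP) library of the plasmids with 1 input library. There were no replicate transfections. The barcodes of an element, 9 in pool 1 and 15 in pool 3, were the only repeated measurements, so every p-value below describes the spread of barcodes within a pair of libraries and not the spread between cultures.

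In pool 1, 221 motif numbers had 4 mismatches, 166 had 5, 51 had 6 and 3 had 7. The motifs were worn unevenly. On average the first half-site held 2.42 mismatches and the second 1.79, and the spacer base differed in 41.5% of members. An intact second half-site was left at 26 of the 441 and an intact first half-site at 4. Counting positions from 1 at the 5′ end of the consensus, with the spacer at position 7, the commonest substitutions were A1G at 64.2%, T4G at 52.2%, A7G at 37.9% and T11G at 36.1% of members. The A at position 6, the last base of the first half-site, differed in 4.54%. In pool 3 the w members showed the same leading substitutions, A1G at 53.4%, T4G at 45.1%, A7G at 41.0% and T11G at 33.9%.

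The motifs that carry the results are given here as 16-mers, 5′ to 3′ in the direction of the DR1, with every base that differs from the consensus in capitals. The first 3 bases lie before the DR1 and are not compared. Positions are in mm9 and the sign is the strand. The sites were not placed in genes or exons, because annotation of that build was not used here. The first 9 are the pool 1 w members with the largest differences between native and altered activity.
w site 548, chr11:90067250-90067265 (+): agaGAgGcaaaggGca
w site 39, chr1:157643103-157643118 (+): ttgGggtGaGaggtGa
w site 660, chr1:89744214-89744229 (-): aatGggtGaaagTGcT
w site 142, chr3:30881176-30881191 (+): tctGggCAaaaggGTa
w site 388, chr2:132424950-132424965 (-): aatGggAcaaaAgCca
w site 138, chr9:31069961-31069976 (-): attGggGAGaaggGca
w site 514, chr16:16216236-16216251 (-): actGggGcTaaggGca
w site 633, chr6:127381269-127381284 (+): actGggtTaaGAgtca
w site 304, chr4:15865443-15865458 (-): aggaggtGaGagTtcT

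The next 3 are among the most degenerate pool 1 motifs, with 7, 7 and 6 mismatches.
w site 8, chr7:26177149-26177164 (+): agtGggGGaGGggGcC
w site 417, chr3:126371099-126371114 (-): actGggGGaGGggGGa
w site 32, chr17:84483403-84483418 (+): ggtGggGGaGGggtGa

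The last 6 are pool 3 sites with large differences in either direction.
w site 1092, chr11:6271605-6271620 (+): agtGgAGTTaaggtca
w site 4, chr11:100864516-100864531 (-): tgcTgTGcaaaggGGa
w site 1098, chr6:3128374-3128389 (+): tgtaggCcaaagTGGa
c site 1401, chr16:55617878-55617893 (+): aagaCTAcaGaggtca
c site 488, chr1:5522029-5522044 (+): aaaGgTCcaGagTtca
c site 935, chr7:34820754-34820769 (+): gaaGgTCcaGagTtca

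The 4 pool 1 libraries used for these sites held 34801803 RNA, 48330091 plasmid, 1987761 ChIP and 1381624 input counts. Pool 3 had more elements and fewer counts for each, with 37267216 RNA and 56246463 plasmid counts. Of the barcodes kept, 5.42% had no RNA count in pool 3 and 0.0118% in pool 1. The median SD among the barcodes of a native w member was 1.33 on the log2 scale in pool 3 and 0.65 in pool 1.

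Native activity was compared with altered activity at degenerate w sites and at the c sites with the same motifs. Activity is the log2 ratio of a barcode's share of RNA to its share of plasmid, with 1 count added to each, for barcodes with at least 20 plasmid counts, and an element's activity is the median over its barcodes. In pool 1 the native form of the w members was 0.61 ± 0.74 (SD over 439 sites) above the altered form, and the difference was above 0 at 363 of 439 (82.7%), against 83.4% of all w sites. The w sites with 0 to 3 mismatches gave 0.75 ± 0.83 (SD over 304 sites). The c members, with the same motifs, gave 0.05 ± 0.40 (SD over 441 sites) and were above 0 at 237 of 441 (53.7%), against 59.0% of all c sites. These spreads are over sites, which are not replicates of a condition.

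Among single w members of pool 1, 101 of 439 (23.0%) had native activity above altered activity, against 24.8% of all w sites tested in the pool, by an exact two-sided permutation test of the barcode rank sum with Benjamini-Hochberg adjustment over all w and c sites of the pool. The w sites with 0 to 3 mismatches stood at 83 of 304 (27.3%). No w member had lower native activity by this test, against 0.135% of all w sites, with 166 members below an unadjusted p of 0.05 in either direction. limma on the barcode values and a permutation test of barcode means also called 0 lower. At 28 w members every native barcode lay above every altered barcode, against 7.13% of all w sites, and at 1 c member, against 0.534% of all c sites. The called members had a median difference of 1.48, and the range ran from 0.35 to 3.82.

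Of the 441 c members, 10 had higher native activity by the same test, against 3.07% of all c sites, and 2 had lower native activity, against 0.801%. The c count depends on adjusting over both classes. With p-values adjusted within each class, a choice made after seeing the data, 4 c members were called higher and 0 lower, and 127 w members were called higher.

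The mean w difference was largest at 3 mismatches and smaller at each number from 4 to 6, with no test of the trend. At 3 mismatches, just outside the rule, the pool 1 w sites had a mean native minus altered activity of 0.78 ± 0.85 (SD over 215 sites), and at 4, just inside it, 0.69 ± 0.79 (SD over 220 sites). At 5 the mean was 0.56 ± 0.72 (SD over 165 sites) and at 6 it was 0.45 ± 0.59 (SD over 51 sites). Sites with 0 to 2 mismatches had 0.67 ± 0.76 (SD over 89 sites), below those with 3. The share called higher was 24.7% at 0 to 2 mismatches, 28.4% at 3, 25.5% at 4, 22.4% at 5 and 15.7% at 6, and 0 of the 3 sites with 7 mismatches were called, 1 of them having an unadjusted p below 0.05. 

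**Figure D1:**
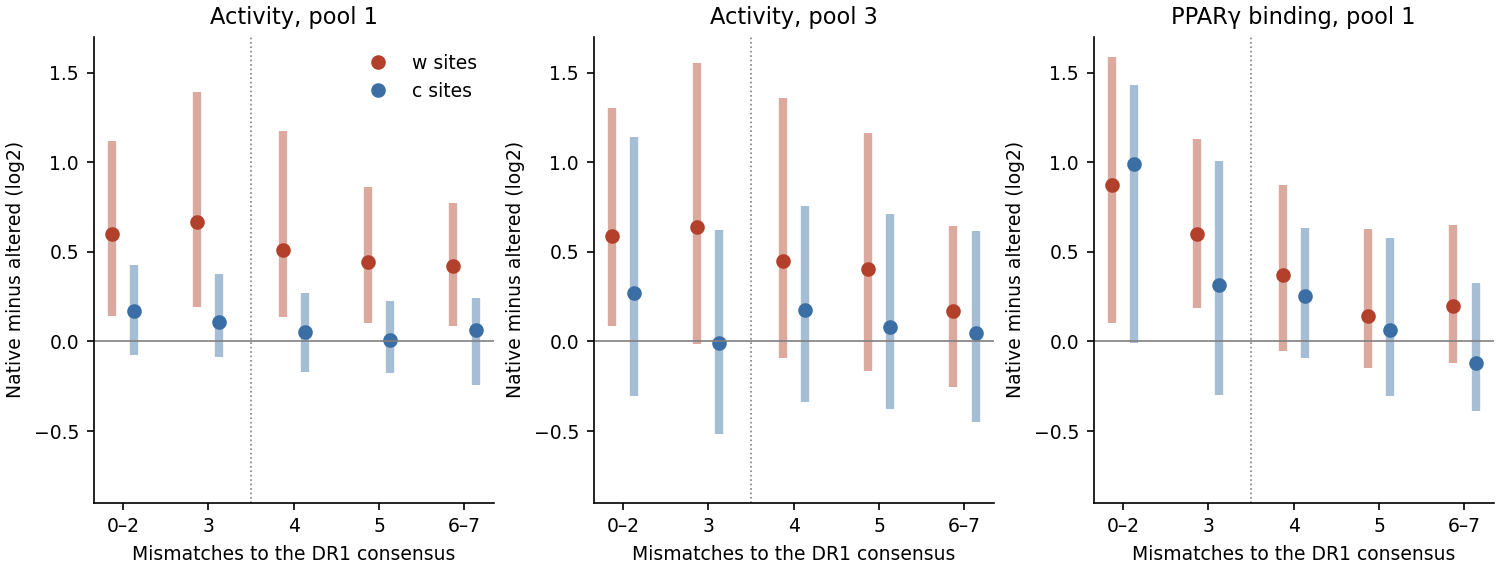
Native minus altered activity (log2) in pools 1 and 3, and native minus altered PPARγ binding (log2) in pool 1, by number of mismatches to the DR1 consensus. Points are medians over sites, bars the quartiles, w sites red and c sites blue, and the dotted line marks the rule of 4 or more. Pool 1 w activity medians go from 0.66 at 3 mismatches to 0.42 at 6 and 7, and w binding medians from 0.60 to 0.20.

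**Figure D2:**
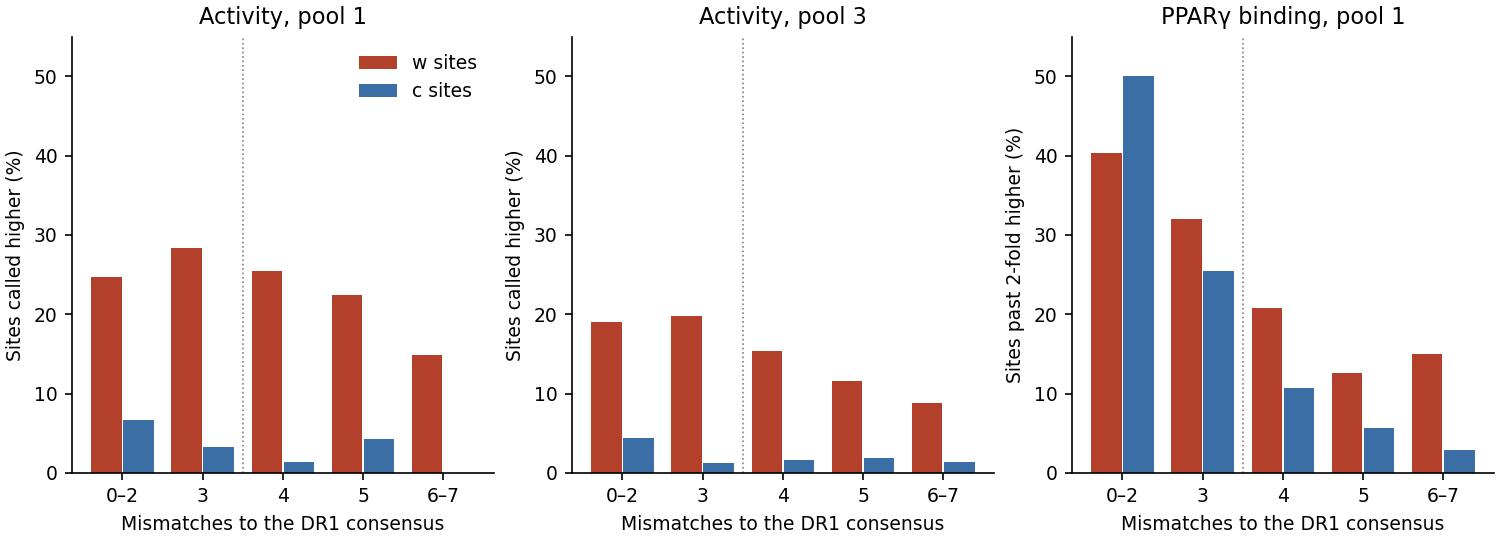
Percent of tested sites called higher in the native form (activity, exact rank-sum test, adjusted p below 0.05) and percent with native binding at least 2-fold above altered binding (no test), by number of mismatches, w sites red and c sites blue, dotted line as before. In pool 1 the w share for activity stands at 25.5% with 4 mismatches and 14.8% with 6 and 7, and the w share for binding at 20.8% and 15%.

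Members make up 58.8% of the pool 1 w sites. They supplied 4 of the 5 largest called w differences in that pool, 4 of the 10 largest, 12 of the 20 largest and 54.9% of all 184 called w sites, so that the last 3 counts were near or below their share of sites. Site 548, with 4 mismatches and 3 of them in the first half-site, had the largest. Its 9 native barcodes ranged from 1.61 to 4.37 with a median of 3.51, and its 9 altered barcodes from -2.13 to 0.77 with a median of -0.31. The ranges did not overlap, and the difference of 3.82 had an adjusted p of 0.00181 by the exact permutation test.

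Site 39, with the first A of its DR1 and its spacer both replaced by G, had native barcodes from 0.85 to 3.14 with a median of 2.62. Its altered barcodes ran from -1.58 to -0.29 with a median of -0.58. Every native barcode lay above every altered one, with a difference of 3.21 and an adjusted exact permutation p of 0.00198. Site 660, with 5 mismatches, had native barcodes from 0.67 to 3.15 (median 2.53) and altered barcodes from -2.43 to -0.08 (median -0.53). These ranges were also apart.

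Site 142, with 5 mismatches, reached a native median of 2.70 and an altered median of -0.24. Sites 388 and 138, with 4 and 5 mismatches, had differences of 2.73 and 2.68, and sites 633, 304 and 123 had 2.59, 2.53 and 2.44. In each of these 6 sites the native and altered barcodes did not overlap. Site 514 was the exception among the 10. Its native barcodes ran from -0.60 to 2.66 and overlapped the altered barcodes, which ran from -1.86 to -0.21, and its difference of 2.63 had an adjusted exact permutation p of 0.0315.

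**Figure D3:**
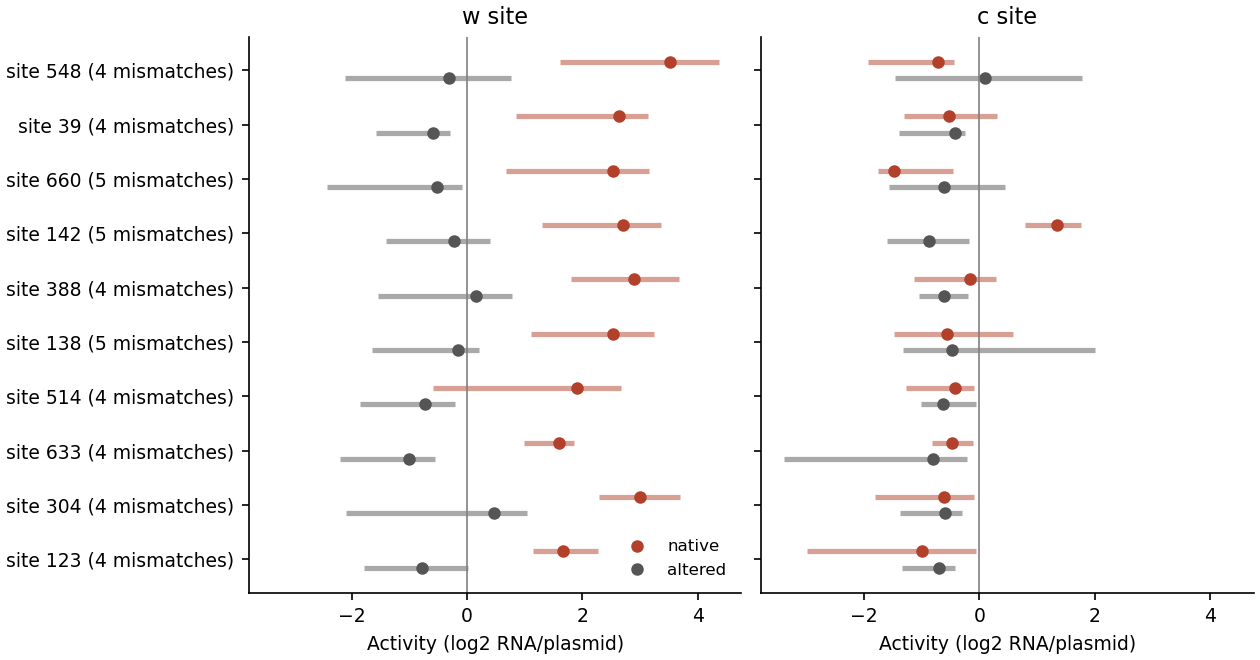
Activity (log2 RNA/plasmid) of the 10 pool 1 w members with the largest called difference, and of the c sites with the same 16-mer. Points are medians over barcodes, bars run from the lowest to the highest barcode, native red and altered grey. At the w sites 9 of 10 pairs of ranges are apart, and among the c sites only number 142 shows a native range above its altered range.

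At the far end of the range, the 3 w sites with 7 mismatches had differences of 0.37 (site 8), 0.32 (site 22) and 0.62 (site 417), all above 0 and none past the test, with overlapping barcodes at each. Site 32, with 6 mismatches, had native barcodes from -0.24 to 1.52 (median 0.50) and altered barcodes from -1.91 to 0.15 (median -0.29), a difference of 0.79 with an adjusted exact permutation p of 0.0315. Site 34, also with 6, had a difference of -0.09 and did not pass. In all, 8 of 51 w sites with 6 mismatches passed. The largest of them, named here after its values were seen, was site 361 with a native activity of 1.71, an altered activity of -0.51 and a difference of 2.22.

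In pool 1 a native activity of at least 1 on the log2 scale (2-fold above the plasmid share) was reached by 89 of 440 w members (20.2%) and by 67 of 306 w sites with 0 to 3 mismatches (21.9%). The figure for c members was 3 of 441. In the altered form 23 of 439 w members still reached it (5.24%), against 6 of 307 (1.95%) of the w sites with fewer mismatches. Pool 3 did not hold that last gap, with 26 of 957 (2.72%) altered w members and 14 of 503 (2.78%) w sites with fewer mismatches. Its native shares were 107 of 971 (11%) and 71 of 511 (13.9%). Of the 89 active native w members of pool 1, 58 were called, against 100 of the 156 active native sites among all w sites. These sites were picked by their native activity, which also enters the test. Site 322 had the highest native activity of the pool 1 members, with barcodes from 3.97 to 5.35 and a median of 4.57, and kept a median of 2.83 when altered. Its native and altered barcodes overlapped, and its difference of 1.74 passed (adjusted exact permutation p = 0.00332).

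Because the w and c sites of a number share their 16-mer, pool 1 compares the same degenerate motif in a pair of genomic settings. The native w element was above the native c element by 0.90 ± 1.06 (SD over 440 motifs). It was higher at 375 of 440 (85.2%), against 82.6% of all pool 1 motifs. In the altered forms the w element was still above the c element by 0.33 ± 0.72 (SD over 439 motifs), with a median of 0.19. The remaining 0.57 ± 0.80 was the w-minus-c gap in native minus altered activity. This gap was above 0 at 340 of 439 (77.4%), against 76.0% of all motifs. Motifs with 0 to 3 mismatches gave a gap of 0.61 ± 0.92 (SD over 303 motifs). Across the 439 members, the w and c differences of the same 16-mer had a Spearman correlation of 0.113, given as a description of points that share their libraries.

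For single motifs, limma on the barcode values of all 4 forms called a larger w difference at 60 of 439 members, against 15.6% of the 742 motifs tested, and a larger c difference at 1, against 0.404%. The limma gaps compare barcode means, so they need not equal the differences of the medians printed here. That one, named after its values were seen, was number 275, where the w-minus-c gap was -1.10 (SE 0.39, limma, adjusted p = 0.0462). Site 39 had the smallest adjusted p of the 4 called gaps named here. Its c element, at chr12:89684808-89684823, had native barcodes from -1.30 to 0.31 (median -0.53) and altered barcodes from -1.39 to -0.26 (median -0.42), which overlapped throughout. The w difference exceeded the c difference by 3.10 ± 0.40 (SE, limma, adjusted p = 3.01e-07). Site 138 gave 3.09 ± 0.50 (SE, limma, adjusted p = 1.43e-05). The estimates were larger for sites 548 (4.80 ± 0.80, SE) and 660 (3.88 ± 0.64, SE), but their c elements rested on 3 native barcodes each, with 480 and 369 plasmid counts. With every barcode of at least 1 plasmid count kept, their c differences turned from -0.81 and -0.86 to 0.36 and 1.46.

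**Figure D4:**
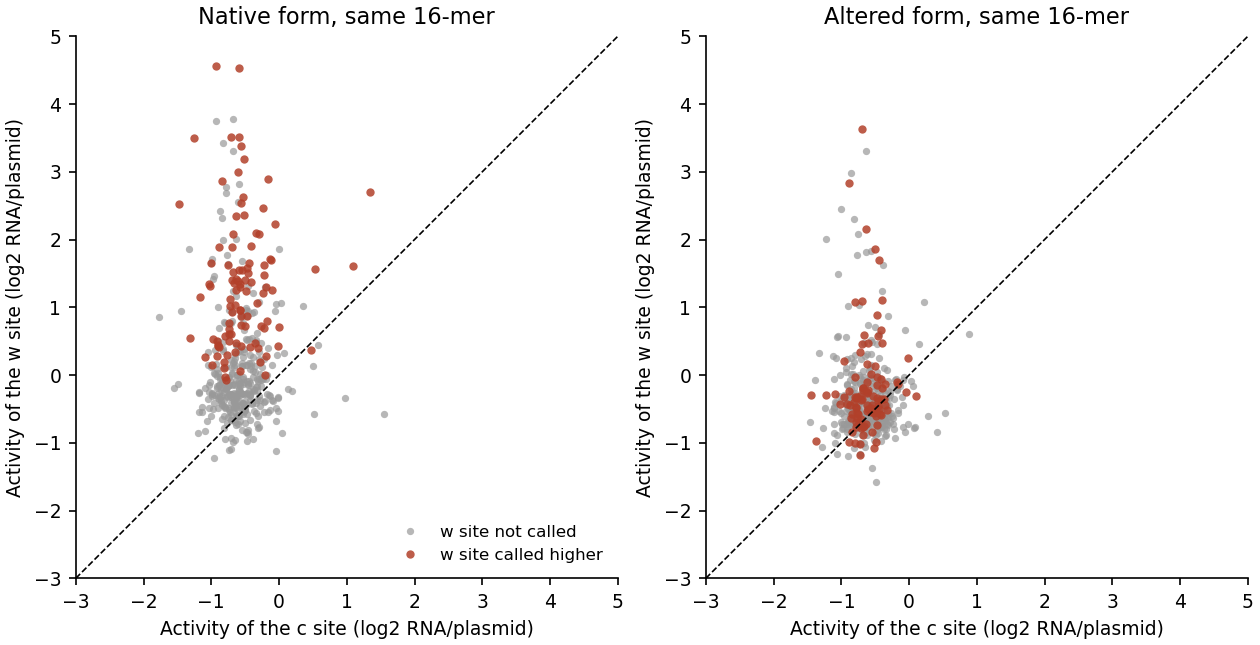
Activity (log2 RNA/plasmid) of the w site against that of the c site carrying the same 16-mer, for pool 1 members, native forms left and altered forms right. Each point is a motif, red where the w site was called higher in the native form, and the dashed line marks equality. Native w activity is above native c activity at 375 of 440 motifs (85.2%), against 82.6% of all pool 1 motifs.

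Calls at c sites and calls at w sites shared 4 motifs. Numbers 46, 142, 438 and 455 were called higher in both classes, 3.96% of the 101 w calls and 40.0% of the 10 c calls. For comparison, 2.27% of all c members and 23.0% of all w members were called higher. The overlap was not tested. Site 142 had the largest called difference of the pool 1 c members. Its c element, at chr1:88631761-88631776, had native barcodes from 0.79 to 1.76 (median 1.35) and altered barcodes from -1.61 to -0.18 (median -0.88), with no overlap, a difference of 2.23 and an adjusted exact permutation p of 0.00181. The w difference at that motif was larger by 0.76 ± 0.38 (SE, limma, adjusted p = 0.174), which did not pass. Number 46 had a w difference of 1.98 and a c difference of 1.81, and its c barcodes overlapped.

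The c members 356 and 166 had differences of 1.45 and 1.12 and passed, the former being 0.84 with barcode counts summed, while the w sites with those motifs, at 0.20 and 1.06, did not. Neither difference between the classes passed (limma adjusted p = 0.142 and 0.644). Of the 2 c members called lower, site 664 had the larger difference, with native barcodes from -1.92 to -0.04 below altered barcodes from 0.23 to 1.54. That is a difference of -1.92 from 427 native RNA counts, and it was -2.28 and not called with a minimum of 100 plasmid counts per barcode (adjusted exact permutation p = 0.142). With a minimum of 1 plasmid count it was -1.17 and still called. The other, named after its values were seen, was site 446 at -0.24. The calls at c sites 46, 356 and 664 were lost when p-values were adjusted within the class.

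Where the mismatches fell was compared within the pool 1 w members as a description. The share called was 23.0% of these members and 24.8% of all w sites. Members with an intact second half-site were called at 10 of 26 (38.5%) and had a mean difference of 0.78 ± 0.65 (SD over 26 sites). With 3 or more mismatches there, 10 of 81 (12.3%) were called and the mean was 0.46 ± 0.62 (SD over 81 sites). For the first half-site the order was not the same, with 9 of 67 (13.4%) called at 0 or 1 mismatch. At 3 or more it was 54 of 211 (25.6%), near the share of all w sites. All members have 4 or more mismatches in total, so fewer in either half-site go with more elsewhere. The total was not held equal between these groups. In pool 3, 13.2% of w members and 15.4% of all w sites were called. With the second half-site intact, 14 of 86 w members were called and the mean was 0.60 ± 1.25 (SD over 86 sites). With 3 or more mismatches in it, 16 of 148 were called and the mean was 0.40 ± 1.27 (SD over 148 sites). The steps between were not in order, with means of 0.54 at 1 mismatch and 0.66 at 2. For the first half-site the pool 3 means were 0.59 at 0 or 1 mismatch, 0.70 at 2 and 0.49 at 3 or more. In pool 1 these were 0.51, 0.63 and 0.63. Single positions did not all run in the same direction. In pool 1 the mean w difference was higher with the consensus base than without it at 8 of 13 positions, and the mismatch-minus-match gap ran from -0.22 at position 11 to 0.22 at position 6. In pool 3 it was higher with the consensus base at 9 of 13, and the gap ran from -0.36 at position 4 to 0.24 at position 12. Position 6 had 20 mismatched members in pool 1, and in pool 3 its gap was -0.14. Positions 3 and 7 also changed sign between the pools. The w gap was below 0 in both pools at positions 2, 4, 8, 9, 10, 11 and 13. At positions 1, 5 and 12 it was above 0 in both. None of these gaps was tested.

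PPARγ binding to the plasmids was lower at higher mismatch numbers. Binding is the log2 ratio of an element's share of ChIP counts to its share of input counts, with 1 count added to each. Elements needed at least 20 input counts, and binding has no repeats. The counts as deposited covered 1992 of the 3000 pool 1 elements. Their lowest input count was 101, so the minimum removed none. Native w binding had a mean of 0.86 with 0 to 2 mismatches (69 sites), 0.61 with 3 (155 sites), 0.27 with 4 (174 sites) and -0.01 with 6 and 7 (42 sites). Native minus altered binding of the w members was 0.33 ± 0.76 (SD over 327 sites), against 0.80 ± 0.91 (SD over 214 sites) for w sites with 0 to 3 mismatches. The c members gave 0.16 ± 0.73 (SD over 244 sites), against 0.49 ± 0.91 (SD over 160 sites). A native value at least 2-fold above the altered one was found at 56 of 327 w members (17.1%), against 24.0% of all w sites, and at 19 of 244 c members (7.79%), against 17.6% of all c sites. The opposite 2-fold difference was seen at 3 w members, against 0.739%, and at 8 c members, against 3.47%.

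Of the 87 called w members with binding values, 21 (24.1%) had native binding at least 2-fold above altered binding, and 13 had native binding at or below altered binding. Among all 154 called w sites with binding values these counts were 45 (29.2%) and 19. Native binding was above altered binding at 225 of the 327 w members, called or not (68.8%). Of the 240 members that were not called, 35 (14.6%) passed the 2-fold mark. For w sites with 0 to 3 mismatches these shares were 24 of 67 (35.8%) and 50 of 147 (34.0%). Over the 327 w members the Spearman correlation between the binding and the activity difference was 0.222, a description of sites that share libraries. Number 39 shows the range. Its native element had 1711 ChIP and 751 input counts and its altered element 1112 and 311, so that binding was lower by 0.65 in the native form, while activity was higher by 3.21.

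Site 249, with 4 mismatches, combined both readouts. Native binding was 2.84 from 4268 ChIP and 412 input counts, altered binding was 0.27, and native activity (median 0.60) was above altered activity (median -0.58) with overlapping barcodes and an adjusted exact permutation p of 0.00332. Site 667 had a binding difference of 2.43 and an activity difference of 1.26, with barcodes apart. Site 269 had the largest binding difference of the w members, 2.72, and an activity difference of 0.09 that did not pass. Site 95 had 2.10 and 0.59, and the latter did not pass. The largest c binding differences, at sites 281 and 51, were 3.53 and 3.07. The altered c element of site 281 had 22 ChIP counts. Site 281 did not pass for activity (0.49), and site 51 did (0.48, adjusted exact permutation p = 0.0488), a call lost when limma was used, with no minimum above 1 plasmid count, or with p-values adjusted within the class. Its difference was 0.76 with barcode counts summed.

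The lowest w binding difference, -6.22 at site 492, came from a native element with 1 ChIP count against 127 input counts. The next, -2.47 at site 444, came from 64 ChIP counts against 141 input counts. With elements under 10 ChIP counts left out, the mean w binding difference of the members was 0.35.

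The same motif in native w and c elements differed in binding by 0.28 ± 1.05 (SD over 215 motifs). The w element was higher at 136 of 215 (63.3%), against 62.5% of all motifs with binding values. The gap in native minus altered binding was 0.15 ± 1.03 (SD over 186 motifs). For motifs with 0 to 3 mismatches the native gap was 0.31 ± 0.90 (SD over 124 motifs). The ChIP covered fewer c than w members (244 and 327 with both forms), so these motifs are a subset.

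Pool 3, a separate set of sites, gave the same order of classes with more scatter. Native minus altered activity of its w members was 0.57 ± 1.30 (SD over 948 sites), against 0.72 ± 1.33 (SD over 497 sites) for w sites with 0 to 3 mismatches. The difference was above 0 at 657 of 948 w members (69.3%), against 71.1% of all w sites of the pool. The c members of pool 3 gave 0.20 ± 1.15 (SD over 1098 sites), against 0.21 ± 1.21 (SD over 335 sites), and 0.08 with barcode counts summed. By the same exact test 125 of 948 w members (13.2%) were higher in the native form, against 15.4% of all w sites, and 10 were lower, against 0.830%. For c members the counts were 18 of 1098 higher, against 1.74%, and 6 lower, against 0.419%. With p-values adjusted within the c class these became 6 and 0. All native barcodes lay above all altered barcodes at 32 w members, against 3.32%, and at 3 c members, against 0.279%. The w share called went from 19.8% at 3 mismatches to 15.4% at 4, 11.6% at 5 and 9.18% at 6.

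Site 1092 had the largest called difference of the pool 3 members. Its second half-site is intact and its first has 5 mismatches. Its 15 native barcodes ran from 2.65 to 4.49 (median 3.92) and its 9 altered barcodes from -5.11 to 0.12 (median -1.31). These did not overlap, and the difference of 5.24 had an adjusted exact permutation p of 6.77e-05. Site 4, with 5 mismatches, had native barcodes from 4.12 to 5.55 (median 4.77) and altered barcodes from -1.03 to 1.71 (median 0.18), also apart. The other w members of the leading 6 were sites 1423, 226, 1048 and 992, with differences of 4.56, 4.42, 3.92 and 3.78, and each had overlapping barcodes. The altered form of site 1423 held 124 RNA counts, and its difference was 2.96 with a pseudocount of 5, 2.43 with barcode counts summed, and 2.67 and no longer called with a minimum of 100 plasmid counts per barcode. The difference at site 1048 was 1.95 with barcode counts summed.

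The largest called difference with the native form lower was at site 1098, whose first half-site has 1 mismatch and whose second has 3. Its native barcodes ran from -0.15 to 1.52 (median 0.38) and its altered barcodes from 3.33 to 5.07 (median 4.36). Every altered barcode lay above every native one, a difference of -3.98 with an adjusted exact permutation p of 4.66e-06. The same 16-mer at w site 330 of pool 1 had a native activity of 0.80 and an altered activity of -0.18, and did not pass. Sites 569 and 675 were also called lower in the native form, at -2.77 and -1.91, with overlapping barcodes. Site 675 has 7 mismatches, as does site 595, named after its values were seen, which was called higher at 1.02. Of the 5 pool 3 w sites with 7 mismatches taken first by number, 108, 162, 228, 315 and 342, none passed, and their differences ran from -0.11 to 0.65.

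Among the c members of pool 3, site 1401 had an intact second half-site, native barcodes from 1.75 to 3.85 (median 3.27) and altered barcodes from -3.01 to 0.66 (median -0.78), apart from each other, with an adjusted exact permutation p of 4.66e-06. Site 234 had a difference of 4.55 that rested on 40 altered RNA counts, and its call was lost with p-values adjusted within the class. Its difference was 2.40 with a pseudocount of 5, 2.74 with a minimum of 1 plasmid count and 2.78 with barcode counts summed. Sites 935 and 488 had 3.65 and 3.17, with overlapping barcodes. The 3 named c sites that were lower, 1163, 1361 and 1418, had differences of -1.96, -1.77 and -1.37. With barcode counts summed, 1163 and 1418 stood at -1.07 and -0.07. Each of these 3 lost its call with no minimum above 1 plasmid count and with p-values adjusted within the class.

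Sites with a shared motif were not always called together, and differences between them were not tested. Sites 488 and 935 belong to 6 pool 3 c members with the same last 15 bases, of which 3 were called (488, 516 and 935) and 3 were not (12, 1139 and 1463), with differences from -0.41 to 3.65. In pool 1, w sites 99 and 413 share a 16-mer and had differences of 1.25 and 1.70, both called. Site 413 lost its call with no minimum above 1 plasmid count, and stood at 1.08 with barcode counts summed. Sites 101 and 138 share another and had 1.99 and 2.68, both called. These pairs are not separate examples, because sites 99 and 138, at chr9:31069976-31069991 and chr9:31069961-31069976, overlap at a shared base. Sites 97, 111, 116, 278 and 487 carry 1 motif within a short stretch of chromosome 11, had differences from -0.28 to 0.57, and none was called. Members are not all independent loci, since 82 of the 441 pool 1 w members start within 100 bases of another w site of the pool, and 16 of the 101 called ones do.

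Pools 2 and 4 were made from 25 of the pool 1 w sites, and 12 of these are members. All 12 had been called in pool 1. How they were picked is not stated in the sources used here, so their pool 1 values are no independent support. In pools 2 and 4 the native form was the element named wt, or bound0 with the site's own number. The altered form there was the one named mut, and whether it matches form d of pool 1 in sequence was not checked. In each of pools 1, 2 and 4 the native form was above the altered form at 12 of 12, with median differences of 1.72, 1.58 and 1.47. Pool 2 had 20 barcodes per element and pool 4 had 13. Site 142 gave 2.94, 2.91 and 3.00 in the 3 pools. Site 39 gave 3.21, 1.87 and 3.18. Site 685 had the widest gap between pools, 1.36, with 1.64 in pool 1, 0.91 in pool 2 and 0.28 in pool 4. The 13 other sites, with 0 to 3 mismatches, were above 0 at 12, 11 and 11 in the same order. Unlike the members, they had not all been called in pool 1, sites 342, 360, 509, 704 and 705 being uncalled. Their values below 0 in pools 2 and 4 were at sites 509, 705 and 211, of which only 211 had been called. The counts of members and other sites are therefore not a like comparison.

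**Figure D5:**
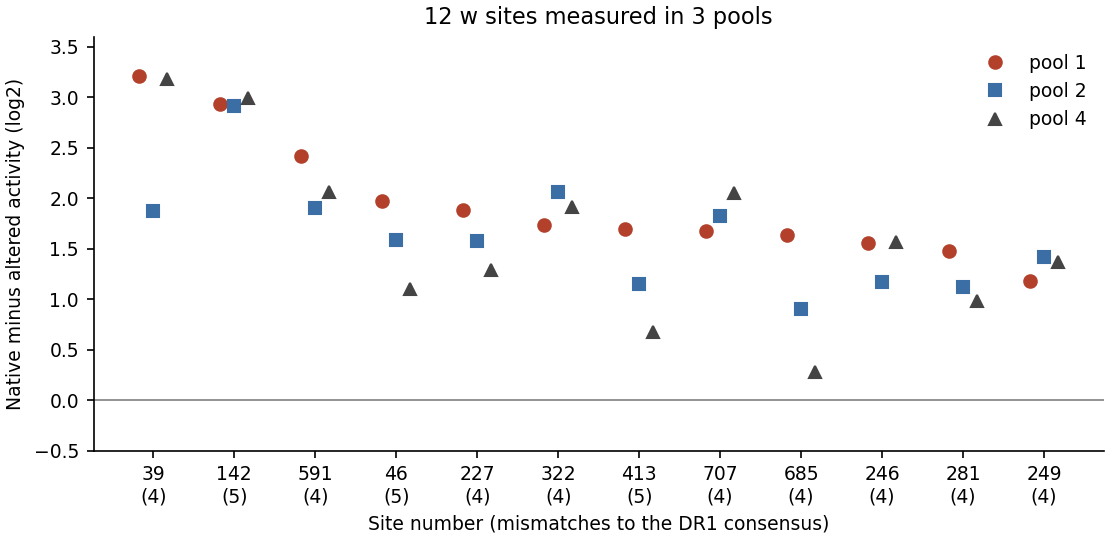
Native minus altered activity (log2, the altered form being named mut in pools 2 and 4) of the 12 members measured in pools 1, 2 and 4, ordered by pool 1, with the number of mismatches in brackets. Circles are pool 1, squares pool 2 and triangles pool 4, each a difference of medians over barcodes. All 36 values lie above 0, the lowest being 0.28 at site 685 in pool 4.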

How the data were processed

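Barcode counts for pools 1 to 4 and element counts for the PPARγ ChIP and its input in pool 1 were used as the authors deposited them, as whole-number counts with no normalization. Per the submitters' processing notes, BWA 0.7.12 and the build mm9 were used, and their settings are not given in the sources used here. The members, lists and tests were chosen with earlier results of these data known. Each named 16-mer was scored against the consensus at every offset and on both strands. Activity and binding were computed as defined in the text, with a pseudocount of 1, at least 20 plasmid or input counts and at least 3 barcodes per form, which 2926 of the 3012 members passed for activity. Smallest exact p-values were 4.11e-05 (9 against 9 barcodes) and 1.29e-08 (15 against 15). The calls used an adjusted p below 0.05. The w-minus-c differences used limma 3.58.1 in R 4.3.3, and all else Python 3.11.15 with SciPy 1.17.1. Scripts were tested on simulated data.

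Sites named in the text are the 10 pool 1 w members with the largest called difference, 5 called c members, the 6 w and 4 c members of pool 3 with the largest called difference with up to 3 called lower, the most mismatched w members, the members with the largest and lowest binding differences, the 4 largest called w-minus-c gaps and the members in pools 2 and 4. Alternatives were pseudocounts, count minimums, summaries, tests and stricter definitions of a member. Counting intervals are not given, since no molecular identifiers are named in the sources used here and reads need not be independent molecules.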

Additional observations from a re-analysis of the deposited data

How the results depend on the processing

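No paired analysis was possible because each pool has 1 RNA and 1 plasmid library and no replicate numbers. Pseudocounts of 0.5 and 5, minimums of 1 and 100 plasmid counts, means or sums over barcodes, limma, a permutation of barcode means, 5 or more mismatches, the spacer base left uncounted and 1 site per distinct 16-mer (the last chosen after seeing the data) changed no sign of a mean difference, and no share called by over 1.5 times. The pool 1 w share called stayed between 20.5% and 28.9%, and the pool 3 w share between 10.9% and 15.5%. Both upper limits came from p-values adjusted within a class. The share with a larger w than c difference stayed between 9.59% and 16.5%. P-values adjusted within a class, an alternative chosen after seeing the data, took the c share called from 2.27% to 0.907% in pool 1 and from 1.64% to 0.546% in pool 3. The cause was not tested. Small c means moved in proportion more, to 0.08 in both pools with summed counts, and the c binding mean went from 0.16 to 0.03 with 5 or more mismatches.

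Of the 44 named sites called, 33 kept their call under every alternative run. Signs turned only at named sites that were not called. With 100 plasmid counts these were w site 8 of pool 1 (-0.11), c site 138 (0.19) and w site 342 of pool 3 (-0.0551, and -0.0528 with summed counts). With barcode means they were pool 3 w sites 108 (-0.45), 162 (-0.0081) and 228 (0.24) and pool 1 c site 39 (0.048). Summed counts turned w site 269 (-0.20). A minimum of 1 plasmid count turned c sites 548 (0.36) and 660 (1.46). The cause was not tested.

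Depth limits the c elements of pool 1 with few barcodes and the single ChIP counts. Pool 3 had fewer counts per element. Its median SD among native w barcodes was 1.33 and the SD of its w differences over sites 1.30. Whether depth accounts for that scatter was not tested. With no replicate transfections, no value here carries the error between cultures.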
